A study of Mus musculus with 6 samples.

Results

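The longest loci expressed in cultured mouse cortical neurons were taken as every tested row of the deposited expression table whose locus spans 300 kb or more on mm10. Of 13498 tested rows 709 met this rule, and 12789 were shorter. The table comes from primary cortical cultures of Balb/c mice, prepared at embryonic day 14.5 and nucleofected at plating with plasmids coding for shNeurod2-1 or shNeurod2-2, both against the neuronal transcription factor NEUROD2, or for a non-silencing shRNA. Total RNA was isolated at 4 days in vitro by the labels, although 5 days are also stated. From it 2 non-silencing libraries and 4 knockdown libraries, 2 for each shRNA against Neurod2, were made and sequenced. For every locus the deposited table gives 1 pooled value per condition in FPKM, fragments per kilobase of transcript scaled to library size, so neither the spread between libraries, the depth behind a value nor the effect of each shRNA alone is known here. No difference below carries a test, since the authors' own p-values were not used and the pooled values allow no other. The sources used here describe no selection of plasmid-bearing cells for the RNA, and do not say whether libraries came from separate cultures.

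A very long gene is nearly all intron, and RNA polymerase needs many hours to cross the longest ones. In the brain such genes are rich in cell adhesion molecules, axon guidance receptors, ion channels and synaptic scaffolds, the proteins with which neurons find and hold their partners. NEUROD2 is a basic helix-loop-helix factor that binds the E-box, CANNTG, and acts in the differentiation of excitatory cortical neurons.

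Most of the long loci with large differences hold small RNA genes, so their sequences come first. MicroRNAs are short RNAs, often cut from introns, that pair with messenger RNAs through a seed. Of 16 long loci past 1.5-fold between conditions, 14 hold an annotated microRNA gene, 23 such genes in all. Over all 709 long loci 210 (29.6%) hold one. Mature sequences from RefSeq (GRCm38.p6) were found for 19 of the 23 genes in loci past 1.5-fold. Of the 30 mature sequences, 22 lie in an intron of the host on its strand, 1 in an exon and 3 on the other strand. The rest lie at a position with no single gene. Only a part of the 30 is shown, each from a long locus with a value past 1.5-fold. Those shown lie in an intron of the gene named, on its strand, except miR-378b, which lies on the strand opposite to Msi2. Capitals mark the seed, bases 2 to 8.
mmu-miR-592-5p, in Grm8, chr6:27936711-27936733, minus strand: aUUGUGUCaauaugcgaugaugu
mmu-miR-592-3p, in Grm8, chr6:27936672-27936693, minus strand: uCAUCACGuggugacgcaacau
mmu-miR-218-5p, in Slit2, chr5:48223966-48223986, plus strand: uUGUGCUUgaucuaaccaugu
mmu-miR-691, in Robo2, chr16:74342005-74342026, minus strand: aUUCCUGAagagaggcagaaaa
mmu-miR-701-5p, in Ttc28, chr5:111004170-111004190, plus strand: uUAGCCGCugaaauagaugga
mmu-miR-99a-5p, in Mir99ahg, chr16:77598940-77598961, plus strand: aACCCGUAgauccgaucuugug
mmu-let-7c-5p, in Mir99ahg, chr16:77599672-77599693, plus strand: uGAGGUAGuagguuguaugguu
mmu-miR-125b-5p, in Mir99ahg, chr16:77646279-77646300, plus strand: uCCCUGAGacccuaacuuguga
mmu-miR-708-5p, in Tenm4, chr7:96249450-96249472, plus strand: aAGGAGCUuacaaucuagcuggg
mmu-miR-6394, in Tenm4, chr7:96305740-96305760, plus strand: uCCCUGAGuggggccaggucu
mmu-miR-27b-3p, in 2010111I01Rik, chr13:63300760-63300780, plus strand: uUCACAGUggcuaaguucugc
mmu-miR-24-3p, in 2010111I01Rik, chr13:63301251-63301272, plus strand: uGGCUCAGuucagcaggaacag
mmu-miR-378b, in Msi2, chr11:88352839-88352858, plus strand: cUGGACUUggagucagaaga

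Among the 30 mature sequences there were 29 seeds. The shared seed belonged to miR-125b-5p from the Mir99ahg locus and miR-6394 from the Tenm4 locus. Mir28c, inside Samd12, had no entry in the sequence table.

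Reln and Creb5 were the only loci of 300 kb or more past 1.5-fold that hold no annotated small RNA gene, and for this reason their promoters are shown. Each stretch is the 250 bases before the RefSeq transcription start (GRCm38.p6), read toward the gene, with E-boxes (CANNTG, which reads the same on both strands) in capitals. The table holds a second promoter for Creb5, and the one given lies at the upstream end of its locus.
Reln, chr5:22344706-22344955, minus strand: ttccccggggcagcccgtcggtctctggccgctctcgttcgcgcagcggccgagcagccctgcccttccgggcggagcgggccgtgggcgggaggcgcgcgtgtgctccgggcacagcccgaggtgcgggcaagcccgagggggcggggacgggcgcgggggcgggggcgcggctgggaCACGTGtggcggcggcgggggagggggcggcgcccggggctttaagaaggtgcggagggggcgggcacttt
Creb5, chr6:53287053-53287302, plus strand: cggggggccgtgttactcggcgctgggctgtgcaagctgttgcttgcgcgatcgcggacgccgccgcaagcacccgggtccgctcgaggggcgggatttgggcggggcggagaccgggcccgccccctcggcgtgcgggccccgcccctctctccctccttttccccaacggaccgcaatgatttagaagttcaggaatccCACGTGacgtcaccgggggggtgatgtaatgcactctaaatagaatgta

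Both stretches held 1 E-box, and in both it was CACGTG. Whether NEUROD2 binds either stretch was not tested here, and the prominent NEUROD2 peaks that the authors report at Reln lie in introns. Of the 32851 promoters of the table, 66.2% held a CANNTG in a stretch of the same length and 6.02% held CACGTG. GC made up 80.0% of the Reln stretch and 66.4% of the Creb5 stretch, and the shares over all promoters were not matched for GC.

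Neurod2 itself stood at 105 FPKM in the control and at 60.3 FPKM in the knockdown, 57.5% of the former. Markers of cortical neurons were tested in 7 of 7 cases, with a summed level of 1841 FPKM in the control and 1973 in the knockdown. Among 5 markers of astrocytes and radial glia, 3 were tested, summing to 1202 and 1353 FPKM. Most of that sum was Fabp7, which was higher in the knockdown (1057 and 1227 FPKM). Slc1a3 was nearly level (87.5 and 90.4 FPKM), and Gfap was lower (57.4 and 35.1 FPKM). The 5 oligodendrocyte lineage markers summed to 76.2 and 69.9 FPKM. The 5 mesenchymal and mural markers were low, summing to 3.82 and 5.97 FPKM, and 3 of them (Col1a1, Col3a1 and Acta2) were past 1.5-fold higher in the knockdown. None of the 5 microglial or 4 endothelial markers was among the tested named loci. The part of these shifts in the values below was not tested, and in bulk RNA fewer cells of a type cannot be told apart from less RNA per cell.

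The 709 rows lay at 499 positions on 20 chromosomes, since several rows of the table were often given the same locus. A row took the name of a GENCODE M21 gene where their spans overlapped by at least 0.5 of their union and no other gene did so. By this rule 203 rows were the sole row at a position with 1 gene, and for 181 others only untested rows shared the position. These 384 rows are called named loci here, and 376 of them (97.9%) are protein-coding genes. Another 216 rows shared a position and a gene name with other tested rows, and 109 lay at positions where no single gene was found. For those 325 rows the table does not say which transcript of the position was measured. Nor does it for the 181 rows that share a position with untested rows. The names of all 384 named loci rest on position alone.

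The extreme cases of crowding were 2 positions with 62 tested rows. The position at chr10:79697305-80369637 held 37 of them over 46 protein-coding genes, among them the splicing regulator Ptbp1, the kinase Stk11 and the ribosomal protein gene Rps15. Their mean levels ran from 0.945 to 398 FPKM with a median log2 ratio of -0.12, and 8 of the 37 were above 0. The other, a stretch of 912 kb on chromosome 18, held 25 tested rows over 62 protein-coding genes, 57 of which are clustered protocadherins, the adhesion proteins that give neurons their surface identity. These rows ran from 0.776 to 232 FPKM with a median of 3.29, 11 of 25 were above 0, and none was past 1.5-fold. Both are compact gene clusters rather than long genes.

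Of all 1562 rows of 300 kb or more, 45.4% were tested, against 41.5% of the shorter rows. A further 844 were marked as not tested. All 3 rows that failed in the whole table were long and lay at the position of Myt1l, a neuronal zinc finger factor. Of 10 rows marked as holding too much data, 6 were long and lay at a stretch of chromosome 6 with 166 annotated immunoglobulin kappa genes.

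The named long genes had more exons and longer transcripts than shorter named genes, but far more intron. Their longest annotated transcript had a median of 17 exons and 5770 bases, against 9 exons and 3172 bases for 9294 shorter named loci. Exons made up a median of 1.19% of the span of a long locus and 13.0% of a shorter one. The 5 longest rows span over 2000 kb. Dmd, which encodes dystrophin, covers 2390 kb with 79 exons (0.624% of the span) and stood at 17.3 FPKM in the control and 13.0 in the knockdown. Ptprd, a presynaptic receptor phosphatase, covers 2271 kb and stood at 50.0 and 55.4 FPKM. Cntnap2, a neurexin relative of the axon, covers 2241 kb and stood at 14.0 and 14.2 FPKM. Lsamp, an immunoglobulin-domain adhesion protein, covers 2192 kb with 7 exons and stood at 38.5 and 42.3 FPKM. Dmd was thus lower in the knockdown, while the other named ones were level or slightly higher. The remaining row, of 2061 kb on chromosome 14, had no single gene and stood at 1.74 and 2.10 FPKM.

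The tested long loci were expressed at a lower level than the tested shorter ones. Rows that the authors did not test are outside these figures. The mean FPKM of both conditions had a median of 7.44 (quartiles 2.20 and 19.2) over the 709 long rows and of 11.9 (4.25 and 28.0) over the 12750 shorter rows with known values. Among named loci the medians were 7.87 and 11.8 FPKM, and among sole rows 9.79 and 12.1 FPKM. Levels under 1 FPKM were found in 9.03% of long and 5.55% of shorter rows. At the top, 30 FPKM or more was reached by 16.9% of long and 23.4% of shorter rows. Level hardly followed length within the long class (Spearman's rank correlation 0.03 over 384 named loci, a description across genes, which are not independent replicates).

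**Figure D1:**
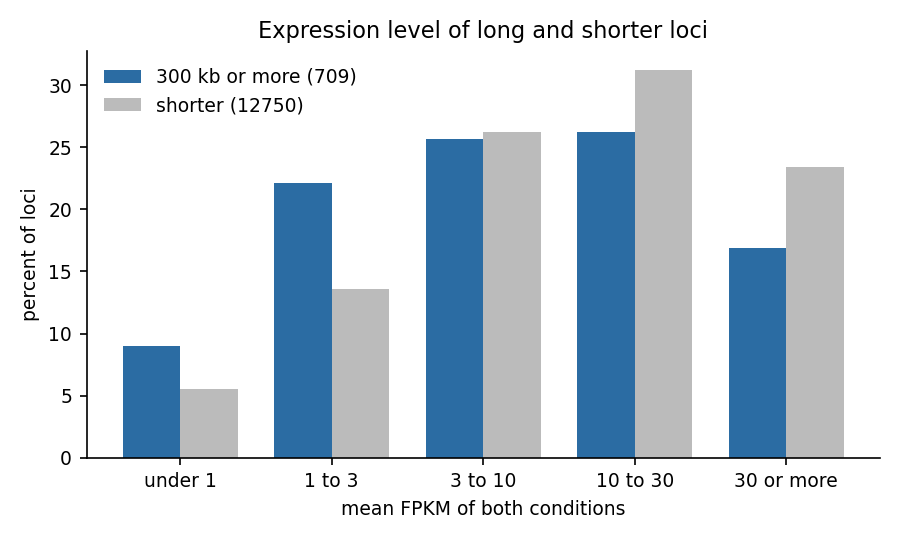
Percent of loci (vertical axis) in 5 bins of mean FPKM of both conditions (horizontal axis), for 709 loci of 300 kb or more and 12750 shorter loci. The long loci were more frequent in the bin from 1 to 3 FPKM (22.1% against 13.6%) and less frequent at 30 FPKM or more (16.9% against 23.4%).

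The named long locus with the highest value was at Cfap299, with 1685 FPKM in the control and 1353 in the knockdown. Inside it lie 2 small RNA genes, among them Mir703. The position holds 3 rows, 1 of them tested. Whether these values reflect the Cfap299 transcript or other RNA of the position was not tested. Tcf4, a helix-loop-helix factor that can pair with proneural factors, followed at 197 and 211 FPKM. Slc8a1, a sodium-calcium exchanger, stood at 112 and 111 FPKM. Behind these came the ephrin receptors Epha5 (104 and 114 FPKM) and Epha3 (68.8 and 73.6 FPKM). The adhesion protein Cadm1 stood at 97.2 and 89.3 FPKM, and the axon initial segment organiser Ank3 at 73.0 and 70.1 FPKM. Limch1 (75.01 and 64.0 FPKM), Opcml (67.9 and 68.1 FPKM) and Ppp2r2b (68.8 and 63.6 FPKM) completed the 10 highest named loci. The row at Cfap299 and that of Limch1 were lower in the knockdown, and the others lay close to their control value. Among rows that were not named, the highest were 2 rows of the chromosome 10 cluster, at 424 and 372 FPKM and at 343 and 188 FPKM, and a row of the protocadherin cluster at 203 and 261 FPKM. A row at Celf2, an RNA-binding splicing regulator, stood at 220 and 232 FPKM, a row at Zbtb20, a zinc finger repressor, at 188 and 127 FPKM, and an unnamed row of chromosome 15 at 185 and 170 FPKM.

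The ratio of knockdown to control was taken as log2 of FPKM + 1 in the knockdown over FPKM + 1 in the control. It was centred near 0 for the long loci and slightly under 0 for the rest. The median was 0.01 (quartiles -0.09 and 0.11) over the long rows and -0.03 over the shorter rows, and 53.2% of the long rows were above 0, against 41.6% of the shorter ones. For named loci the medians were 0.02 and -0.03, with 57.6% and 41.3% above 0. The median of all tested loci at 1 FPKM or more was -0.03, so a ratio of 0 stood slightly above the centre of the table. These are shifts of a few percent between pooled values, and whether they exceed the spread between libraries cannot be told.

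**Figure D2:**
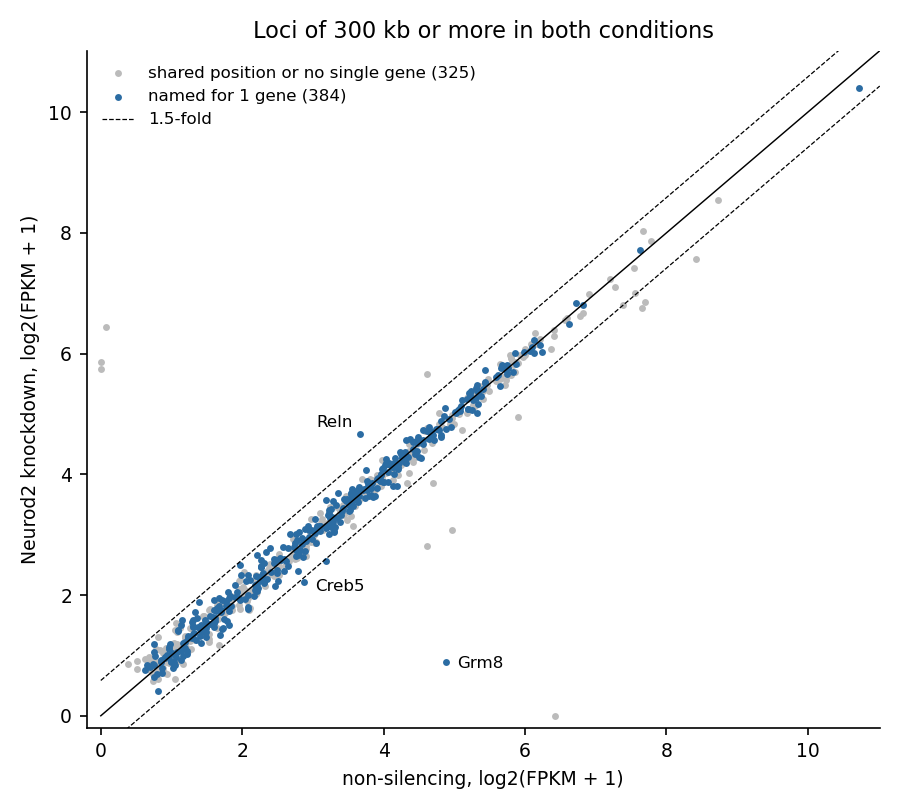
Level of each of the 709 loci of 300 kb or more in the knockdown (vertical axis) against the non-silencing control (horizontal axis), both as log2(FPKM + 1), with 384 named loci in blue, 325 others in grey and dashed lines at 1.5-fold. Nearly all points follow the diagonal, and 16 lie beyond the dashed lines, 4 of them named.

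Since lower values were spread differently, long and shorter loci were compared at the same level. In 5 bins of mean FPKM the long median was higher in 5 of 5, by 0.02 to 0.05 on the log2 scale, and for named loci by 0.03 to 0.06. Named long loci at 30 FPKM or more had a median log2 ratio of 0.02, and shorter ones of -0.04. In the bin from 3 to 10 FPKM the medians were 0.01 and -0.02. Within 4 bins of transcript length (under 2 kb, 2 to 4, 4 to 6, and 6 kb or more) the named long median was also the higher in 4 of 4, by 0.004 to 0.03. The smallest of these gaps is close to nothing, and the long loci's longer transcripts moved with the difference in ratio, and their part in it was not tested.

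**Figure D3:**
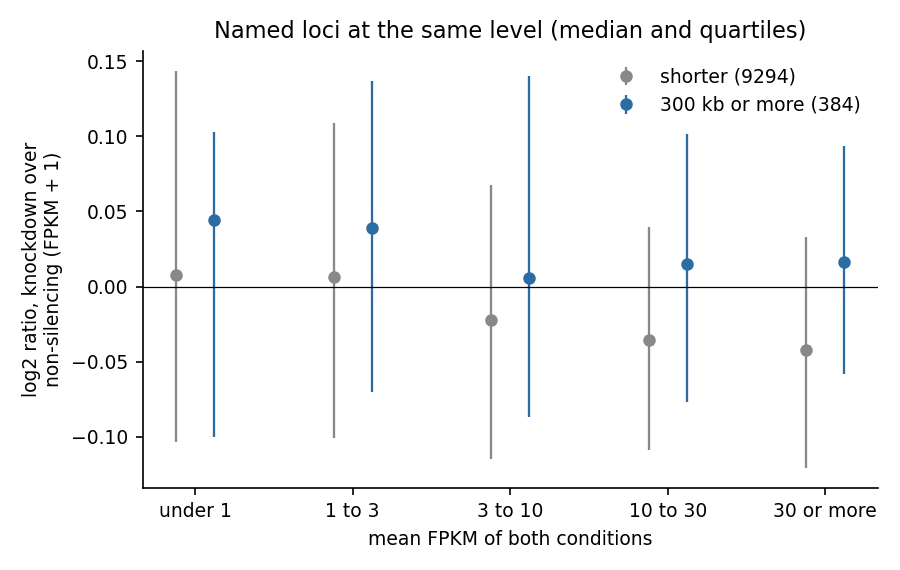
Median log2 ratio of knockdown over non-silencing (vertical axis, from FPKM + 1) in 5 bins of mean FPKM (horizontal axis) for 384 named loci of 300 kb or more and 9294 shorter named loci, with bars from the lower to the upper quartile. The long median lies above the shorter one in every bin, by 0.03 to 0.06, while the quartile ranges overlap throughout.

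The limit of 300 kb was not a step. Named loci under 10 kb had a median log2 ratio of -0.07, those of 10 to 30 kb of -0.04, those of 30 to 100 kb of -0.005, and those of 100 to 300 kb of 0.01. Above the limit the medians were 0.005 at 300 to 500 kb (237 loci), 0.05 at 500 to 1000 kb (110 loci) and 0.02 at 1000 kb or more (37 loci). The medians therefore climbed with length up to the bin of 100 to 300 kb and showed no steady order beyond it. Of the 37 named loci of 1000 kb or more, the 22 without a small RNA gene had a median of -0.02. Across 9678 named loci the rank correlation of length with ratio was 0.21, and within the 384 long ones 0.10. Both describe genes of the same pooled libraries. Just inside the limit lay Jazf1 (301 kb, 15.9 and 16.9 FPKM), Cntn3 (301 kb, 3.64 and 5.34 FPKM) and Ranbp17 (302 kb, 2.57 and 2.52 FPKM). Just outside, each slightly under 300 kb, lay Akap13 (3.56 and 3.94 FPKM), Pde1c (2.09 and 1.66 FPKM) and Nxph1 (2.88 and 3.28 FPKM).

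**Figure D4:**
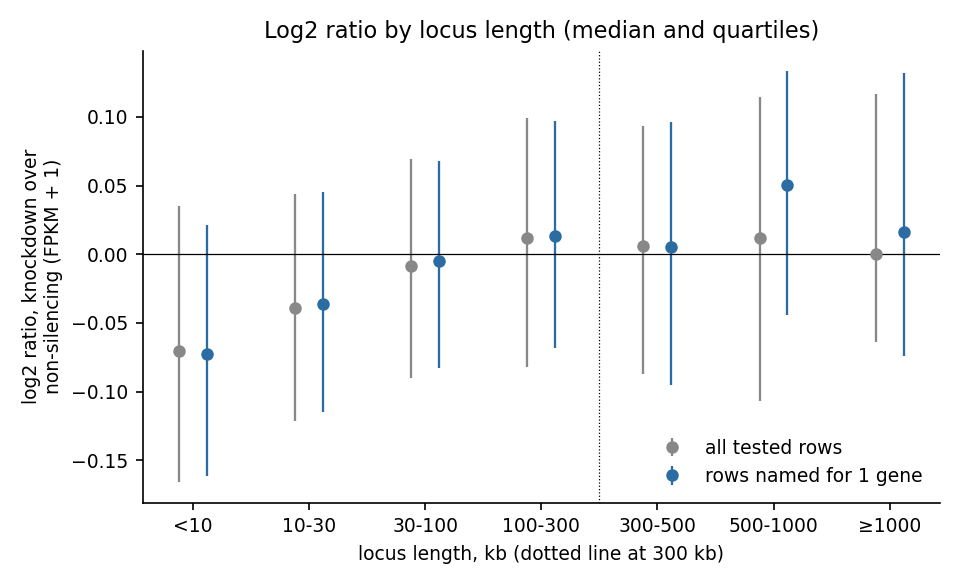
Median log2 ratio of knockdown over non-silencing (vertical axis, from FPKM + 1) in 7 bins of locus length in kb (horizontal axis), for all tested rows in grey and named rows in blue, with bars from the lower to the upper quartile. The medians of named rows climb from -0.07 under 10 kb to 0.01 at 100 to 300 kb, and those right of the dotted line at 300 kb lie between 0.005 and 0.05.

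Past 1.5-fold on the log2(FPKM + 1) scale were 16 of 709 long rows (2.26%), against 3.11% of all tested loci, with 5 higher in the knockdown (background 1.20%) and 11 lower (background 1.90%). Which class had the larger share depended on the setting. With a pseudocount of 0.1 FPKM it was 4.94% of the long and 4.77% of the shorter rows, and with a lower fold limit 7.76% and 7.43%. Among named loci it was 4 of 384 (1.04%), against a background of 1.51%. The other 12 lay at shared or unnamed positions. A small RNA gene lay inside 14 of the 16 (87.5%) and inside 297 of all 709 long rows (41.9%). Without such a gene, 2 of 412 long rows (0.485%) were past 1.5-fold, against 4.71% of the long rows with one. Most of that gap came from shared or unnamed positions. Among named long loci it was 2 of 271 (0.738%) without such a gene and 2 of 113 with one. The shorter loci showed the same split, with 1.67% past 1.5-fold without a small RNA gene and 14.1% with one.

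The 4 named loci were Reln, Creb5, Grm8 and Diaph3. Reln, at chr5:21884454-22344705, encodes the secreted protein reelin, which guides neurons to their layer. It stood at 11.7 FPKM in the control and 24.3 in the knockdown, a log2 ratio of 1.00, and was the only named long locus past 1.5-fold higher on this scale. Grm8, at chr6:27275121-28135133, encodes a presynaptic metabotropic glutamate receptor. It stood at 28.6 and 0.846 FPKM, a log2 ratio of -4.00, and miR-592, printed above, lies in its intron. The position of Grm8 has 1 row, and whether its values reflect the receptor transcript or other RNA of the position was not tested. Creb5, at chr6:53287295-53695832, encodes a CREB-family transcription factor and stood at 6.35 and 3.67 FPKM (log2 ratio -0.66). Diaph3, a formin that nucleates actin filaments, stood at 8.08 and 4.93 FPKM (log2 ratio -0.61) and has 1 annotated small RNA gene inside. Grm8 was the furthest of these from its control, and Diaph3 and Creb5 lay close to the limit.

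At the shared positions, a row past 1.5-fold mostly stood beside a row that hardly differed. At Slit2, the repellent guidance ligand, the row past the limit went from 23.5 to 6.04 FPKM, and the other tested row stood at 5.61 and 5.72 FPKM. At Robo2, the receptor of the Slit proteins, the values were 201 and 107 FPKM in a row past the limit and 49.2 and 55.6 FPKM in the other. All 12 rows past the limit at shared or unnamed positions have an annotated small RNA gene inside, and all 12 have a microRNA gene. Of all 325 long rows at such positions, 184 (56.6%) hold a small RNA gene. At Ttc28 the pair of rows stood at 30.4 and 7.48 FPKM and at 29.7 and 27.5 FPKM. At Msi2, a neural RNA-binding protein, a row was listed at 0 in the control and at 57.0 FPKM in the knockdown, beside a row at 37.8 and 38.7 FPKM. At Samd12 a row stood at 84.9 FPKM in the control and was listed at 0 in the knockdown, beside a row at 7.09 and 7.27 FPKM. No fold is given against a value listed at 0.

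Tenm4, a teneurin adhesion protein, had 4 tested rows at its position. The row past the limit stood at 23.6 and 49.4 FPKM, and the others at 14.52 and 14.59, at 33.5 and 25.7 and at 2.17 and 1.253 FPKM. Mir99ahg, the host gene of miR-99a, let-7c and miR-125b, had a row at 207 and 114 FPKM, a row at 167 and 111 FPKM just inside the limit, and a row at 19.5 and 21.6 FPKM. Its rows therefore pointed in different directions. At 2010111I01Rik, which holds the genes of miR-23b, miR-27b and miR-24, a row was listed at 0 in the control and at 52.8 FPKM in the knockdown, and the other 3 rows lay between 0.626 and 5.05 FPKM. At Gm26691 a row stood at 0.0500 and 85.9 FPKM beside a row at 7.61 and 9.33 FPKM. The remaining rows past the limit lay at 2610307P16Rik (58.8 and 29.9 FPKM), at 5730522E02Rik (24.9 and 13.5 FPKM) and in the chromosome 10 cluster (343 and 188 FPKM).

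Apart from these, the sole-row genes furthest from their control differed by less than 1.5-fold on this scale. On the higher side stood Spock3, a proteoglycan (1.63 and 2.71 FPKM), Utrn, the dystrophin relative utrophin (4.03 and 5.57 FPKM), and Rit2, a neuronal small GTPase (8.11 and 10.9 FPKM). Ntng1, a netrin relative of axons, stood at 4.26 and 5.86 FPKM, and the GABA-A receptor subunit Gabrg3 at 1.52 and 2.28 FPKM. Prex2 (1.198 and 1.85 FPKM) and Mtus2 (2.96 and 4.02 FPKM) followed. On the lower side stood the NMDA receptor subunit Grin2a (5.88 and 4.30 FPKM), the potassium channel Kcnq5 (16.6 and 13.0 FPKM) and Otud7a, a deubiquitinase (4.67 and 3.72 FPKM). Gphn, which encodes the inhibitory scaffold gephyrin, stood at 22.1 and 18.3 FPKM. Hs3st4, a heparan sulfate sulfotransferase, stood at 8.87 and 7.28 FPKM, and Limch1 at 75.01 and 64.0 FPKM.

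By role, 235 of the 384 named long loci fell into 14 lists. The list medians of the log2 ratio were above 0 in 12 and below 0 in 2 of the lists, and 4 of the 235 loci (1.70%) were past 1.5-fold, against the background of 1.51%. Against the shorter named members of the same lists the long median was higher in 7 lists and lower in 7. The higher median of the long class as a whole was therefore not repeated in every role. Loci in no list had a median of 0.01 over 149 loci, with none past 1.5-fold.

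**Figure D5:**
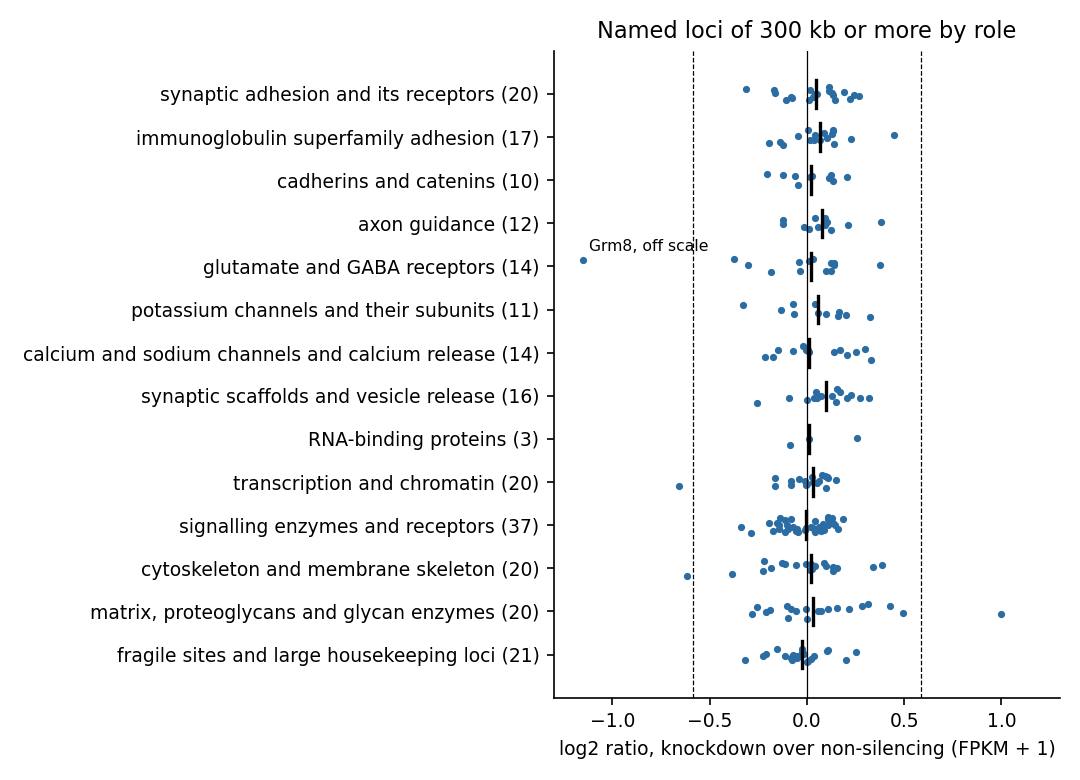
Log2 ratio of knockdown over non-silencing (horizontal axis, from FPKM + 1) for each named locus of 300 kb or more in 14 role lists (vertical axis, number of loci in brackets), with points as loci, black bars as list medians and dashed lines at 1.5-fold. The medians lie between -0.03 and 0.10, and the points beyond the dashed lines are Reln, Creb5, Diaph3 and Grm8, whose value of -4.00 is drawn near the left edge.

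Adhesion proteins made up a large group. The 20 loci of synaptic adhesion and its receptors had a median log2 ratio of 0.05, with 14 above 0 and none past 1.5-fold. The 9 shorter members had a median of -0.09. Below Ptprd, the highest were the latrophilin Adgrl3 (52.5 and 49.7 FPKM), the calsyntenin Clstn2 (39.0 and 31.2 FPKM) and Lrfn5 (33.4 and 36.6 FPKM). The 17 loci listed as immunoglobulin superfamily adhesion had a median of 0.07 and 13 above 0, against -0.06 for 9 shorter members. That list also holds Astn1 and Ptprg, which have no immunoglobulin domain. Besides Cadm1 and Opcml, the receptor phosphatase Ptprk (62.6 and 64.1 FPKM) and neurotrimin, Ntm (48.3 and 48.9 FPKM), were high. The 10 cadherins and catenins had a median of 0.02, with Ctnnd2 at 39.5 and 40.2, Cdh13 at 33.0 and 33.4, Pcdh9 at 33.0 and 31.97, and Fat3 at 15.6 and 17.0 FPKM. Clstn2 had the lowest log2 ratio of the group on the FPKM + 1 scale, -0.31. Without the pseudocount the cadherin Cdh23 (1.06 and 0.788 FPKM) lay lower, at a fold of 0.744 against 0.801 for Clstn2.

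The 12 axon guidance loci had a median of 0.08 with 9 above 0. Besides Epha5 and Epha3, the Slit receptor Robo1 stood at 42.2 and 45.1 FPKM and Ephb1 at 13.9 and 12.7 FPKM. Among synaptic scaffolds and vesicle release proteins the median was 0.10, the highest of the 14 lists, with 13 of 16 above 0. Its leading members were the postsynaptic scaffold Dlg2 (52.5 and 55.2 FPKM), the priming factor Cadps (36.6 and 40.8 FPKM), the active zone protein Erc2 (36.2 and 39.6 FPKM) and the calcium sensor Syt1 (28.2 and 33.2 FPKM). Gphn, at -0.26, was the lowest member. Shorter members of the scaffold list had a median of 0.04 over 21 loci.

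Channels and receptors lay near 0 as groups. The 14 glutamate and GABA receptor loci had a median of 0.02 with 8 above 0, and only Grm8 was past 1.5-fold. Grin2b, the NMDA receptor subunit of young neurons, stood at 66.2 and 64.7 FPKM, and Grin2a at the lower values given above. Grm5 stood at 49.8 and 53.4, Grik2 at 21.5 and 23.5, and the AMPA receptor subunit Gria1 at 17.7 and 19.6 FPKM. The 11 potassium channel loci had a median of 0.05. None was past 1.5-fold. After Kcnq5, the highest levels were those of Dpp6 (12.5 and 15.9 FPKM), an auxiliary channel subunit, the channel Kcnd2 (10.6 and 11.97 FPKM) and Dpp10 (9.03 and 10.2 FPKM). The 14 calcium and sodium channel and calcium release loci had a median of 0.01 and ran from -0.22 to 0.33. The calcium channel subunit Cacna2d1 stood at 42.3 and 52.3 FPKM, the calcium release channel Itpr1 at 48.9 and 43.2 FPKM, and Fgf13 at 22.6 and 22.8 FPKM.

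The 20 transcription and chromatin loci had a median of 0.03, and Creb5 was the one past 1.5-fold. After Tcf4 the highest were the cofactor Ldb2 (40.8 and 38.5 FPKM), the upper-layer factor Cux1 (39.2 and 34.9 FPKM) and Camta1 (18.7 and 19.8 FPKM). Only 3 RNA-binding loci were named, Khdrbs2 (18.1 and 18.2 FPKM), Rbfox3, which encodes NeuN (10.8 and 10.1 FPKM), and Rbms3 (1.56 and 2.06 FPKM). The 37 signalling loci, the largest list, had a median of -0.002 with 18 above 0. Their highest members after Ppp2r2b were Tnik (52.9 and 54.4 FPKM), the BDNF receptor Ntrk2 (55.9 and 50.6 FPKM) and the synaptic protein Kalrn (39.1 and 41.0 FPKM).

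The 20 cytoskeletal loci had a median of 0.02, against 0.07 for 28 shorter members, and Diaph3 was the one past 1.5-fold. The linker Dst (41.4 and 41.9 FPKM) and Frmd4a (31.1 and 31.6 FPKM) were nearly level. The 20 loci of matrix, proteoglycans and glycan enzymes had a median of 0.03 and held Reln. Dab1, the adaptor that carries the reelin signal inside neurons, stood at 57.8 and 55.6 FPKM, a log2 ratio of -0.05. The secreted Edil3 stood at 19.7 and 23.04 FPKM. The 21 fragile-site and large housekeeping loci had the lowest list median, -0.03 with 8 above 0, against 0.07 for 15 shorter members. Apart from the row at Cfap299 the highest were the dynein chain Dync1i1 (51.9 and 52.1 FPKM), Ube2e2 (27.0 and 24.2 FPKM) and Fto (25.1 and 24.1 FPKM).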

How the data were processed

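Primary cortical cultures gave 2 non-silencing and 4 Neurod2 knockdown libraries, read as 50 bp single ends. The authors mapped reads to mm10 with TopHat and used Cufflinks and Cuffdiff, versions not given in the sources used here. Their deposited table holds 1 FPKM value per condition, both shRNAs pooled, so depth is unknown and no SD, interval or test could be computed from the FPKM values. It also holds log2 fold changes, test statistics, p-values and q-values from the authors' own comparison, which are neither printed nor used as results. A spreadsheet had stored many FPKM cells as times of day. All readings of such a cell were listed, and the pair kept whose log2 ratio matched the deposited log2 fold change to within 2e-05. In this way, times were turned back in 238 of the 709 long rows, needed no change in 471 and left 39 shorter rows unknown. The restoration was tested on simulated data in which only control values were stored as times. Rows with the knockdown value or the log2 fold change also stored as a time were not covered by it. Ratios are log2 of FPKM with a pseudocount of 1, and 1.5-fold was the limit, with no filter on low values.

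Loci were named from GENCODE M21 (GRCm38). The genes named are Neurod2, the 3 loci on either side of the limit, the 5 longest, the 10 highest, the 8 sole rows furthest on each side with a mean FPKM of at least 1, and up to 4 per role list. Diaph3, Clstn2, Cdh23, genes at crowded or failed positions and rows at shared positions past the limit were chosen after their values were seen. So were the other named loci among the 10 highest and the markers singled out. The bins of transcript length were added after seeing the data. The members and lists were chosen with earlier results of these data known. Promoters were found for 76.6% of named long loci, under 80%, so a comparison of promoter motifs between long and shorter loci is void and is not given. Alternatives were another pseudocount, filter, length limit, fold limit, centring and choice of rows. Python 3.11.15, pandas 2.3.3 and numpy 2.4.6 were used. The number of value columns left out was 0. A member that the naming rule gives is not reported here.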

Additional observations from a re-analysis of the deposited data

How the results depend on the processing

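No paired analysis was possible because the table holds 1 pooled value per condition, and libraries could not be left out for the same reason. The share of long loci past 1.5-fold, 2.26% as reported, became 4.94% with a pseudocount of 0.1 FPKM (shorter loci 4.77%), 7.76% at a lower fold limit (shorter 7.43%) and 1.13% at a limit of 2. It became 1.49% at 500 kb or more, 1.44% for unshared positions, 1.48% for sole rows of 1 gene, 1.04% for named loci (an alternative chosen after seeing the data) and 0.485% without loci holding a small RNA gene. The long share was below the shorter one in 10 of 12 alternatives and above it in 2, the pseudocount of 0.1 and the lower fold limit. The median log2 ratio of long loci ran from 0.005 to 0.036 over 10 alternatives, 0.036 when centred on the median of all loci, and was above the shorter median in 10 of 10. Centring adds 0.03 to every median given, which puts the signalling and housekeeping lists above 0. The median level, 7.44 FPKM, became 9.77 for unshared positions, 9.79 for sole rows of 1 gene and 4.50 with plain cells only, and stayed below the shorter median in 6 of 6. The cause of these moves was not tested.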
